A study of Rattus norvegicus with 18 samples.

Results

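Voltage-gated sodium, calcium and potassium channels, the other potassium channel families, the HCN pacemaker channels and the auxiliary subunits of these channels were compared in rat spinal cord material. The genes were taken by the symbol of their probe sets on the array (symbols opening with Kcn, Scn and a subunit letter, Cacn or Hcn). Kcnj10, a glial inward rectifier, was left out by the same rule. This gave 112 genes with 179 probe sets, of 14217 named genes and 31042 tested probe sets, and each gene was read from its probe set with the highest mean over all arrays. Expression had been measured on 18 single-channel Affymetrix arrays of total RNA, 6 per group. The control arrays carry no agent in their label. The BMP arrays were of material given bone morphogenetic protein at 10 ng/mL, and the CNTF arrays of material given ciliary neurotrophic factor at 10 ng/mL, both with an entry of 4 days. No time is given for the controls, the BMP family member, cell type and culture are not named, and an entry shared by all labels, "14 NT", was not interpreted. Each group holds 1 array of each title number from 1 to 6.

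Ion channels set how a neural cell responds to input. Sodium channels carry the upstroke of the action potential, voltage-gated calcium channels couple depolarisation to calcium entry and transmitter release, and potassium channels repolarise the membrane, hold the resting potential and delay or limit firing. Pore subunits reach the membrane and gate together with auxiliary subunits (KChIPs, Kv beta, sodium channel beta, calcium channel beta and alpha2delta), and glial cells express potassium channels too. BMPs signal through receptor serine kinases and SMAD proteins, and CNTF through gp130, JAK kinases and STAT3.

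Levels are given as log2 levels, log2(intensity + 116.655), and differences as log2 differences on the same scale, so that changes of dim genes come out too small. The whole table has a median of 9.75. For 31 of the 112 channel genes at least 1 group mean reached that median, and 81 lay below it in every group. An intensity at the 20th percentile of the table has a log2 level of 7.87. Of the called genes, 5 had a group mean under that level (Scn9a and Kcns3 in the controls, Kcna1 with BMP, Kcnk9 with CNTF, Cacng3 in the controls and with CNTF), so the size of their differences depends on the added constant, and no fold is given for them. A gene was called at a limma adjusted p under 0.05, adjusted by Benjamini-Hochberg across the 31042 tested probe sets, and only called genes are said to have risen or fallen. The ± after a difference is limma's standard error, with n = 6 arrays per group. Whether the arrays of a group stand for different cultures or animals is not in the labels. The p-values therefore weigh differences against the spread from array to array alone, which may be technical. The 3 comparisons share arrays and are not independent of each other. In bulk RNA, fewer cells of a type and less RNA per cell cannot be told apart.

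Median intensities of the arrays lay between 666.5 and 817.2. Neuronal markers were present in every group: the log2 of their summed intensity was 17.24 to 17.33 on the control arrays, 17.01 to 17.69 with BMP and 17.28 to 17.48 with CNTF. Of 20 neuronal markers 3 rose and 1 fell with BMP against control, and 0 were called with CNTF. For this and the marker counts below, 4.21% of all named genes rose and 3.02% fell with BMP, and 2.04% and 0.823% with CNTF. Markers of the oligodendrocyte lineage moved with BMP. Of 10 precursor markers 9 fell against control, with summed levels of 15.47 to 17.32 with BMP and 17.54 to 17.89 in the controls. Of 14 oligodendrocyte markers 8 fell, with sums of 14.68 to 17.12 with BMP, 16.64 to 18.24 in the controls and 16.98 to 18.45 with CNTF. With CNTF 1 of the 10 precursor markers and 0 of the 14 oligodendrocyte markers fell. Of 13 astrocyte markers 1 rose with BMP, and 2 rose and 1 fell with CNTF. Their sums were 17.53 to 18.09 (median 17.70) in the controls, 17.62 to 18.27 (18.03) with BMP and 17.92 to 18.52 (18.30) with CNTF. The median log2 difference of the 13 markers from control was -0.17 with BMP and -0.06 with CNTF. Of 12 fibroblast and smooth muscle markers 1 rose with BMP, and their sums were 13.80 to 16.32 with BMP, 12.27 to 13.76 in the controls and 12.09 to 14.70 with CNTF. All 12 microglial and 8 endothelial markers lay below the table median; 0 microglial markers were called in any comparison, and 1 endothelial marker rose with BMP. Of 6 Schwann cell markers 1 rose with CNTF. The part of any of these cell types in the channel differences was not tested.

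More channel genes separated BMP from CNTF than separated either from the controls. Against control, 7 channel genes rose and 3 fell with BMP, where 4.21% and 3.02% of all named genes were called higher and lower and 6.01% of all probe sets were called. With CNTF 1 rose and 3 fell, beside 2.04% and 0.823% of all named genes and 2.32% of probe sets. Between the additions, 12 channel genes were higher and 4 lower with BMP than with CNTF, beside 3.74% and 3.76% of all named genes and 6.23% of probe sets. In all 24 of the 112 genes were called in at least 1 comparison. Some counts are a matter of 1 or a few genes: leaving out single arrays gave 5 to 9 higher and 2 to 4 lower with BMP, 0 to 2 higher and 2 to 3 lower with CNTF, and 9 to 15 higher and 3 to 6 lower between the additions. A fit on the compared groups alone ended the calls of Cacnb3, Kcns1 and Cacna1d for BMP against control and of Scn9a, Cacnb2, Scn1a, Scn2a and Kcnk10 for BMP against CNTF (limma adjusted p = 0.0522 to 0.0773). Quantile normalization ended those of Cacnb3 and Cacna1d for BMP against control (limma adjusted p = 0.0576 and 0.09), and a constant at the 40th percentile that of Kcns3 for CNTF against control (limma adjusted p = 0.0857).

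The title numbers pair the arrays, and a fit with the number as a block called more genes everywhere. It gave 17 channel genes higher and 12 lower with BMP against control (10.7% and 9.28% of named genes), 4 and 8 with CNTF (5.44% and 4.06%), and 28 and 6 between BMP and CNTF (9.38% and 8.82%). All 10, 4 and 16 calls of the unblocked fit were kept. The median log2 difference over the 112 genes was 0.05 for BMP against control, -0.12 for CNTF against control and 0.19 for BMP against CNTF, while over all named genes it was 0.0053, -0.0045 and 0.0059. The difference between BMP and CNTF was positive for 75 of the channel genes and negative for 37.

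**Figure D1:**
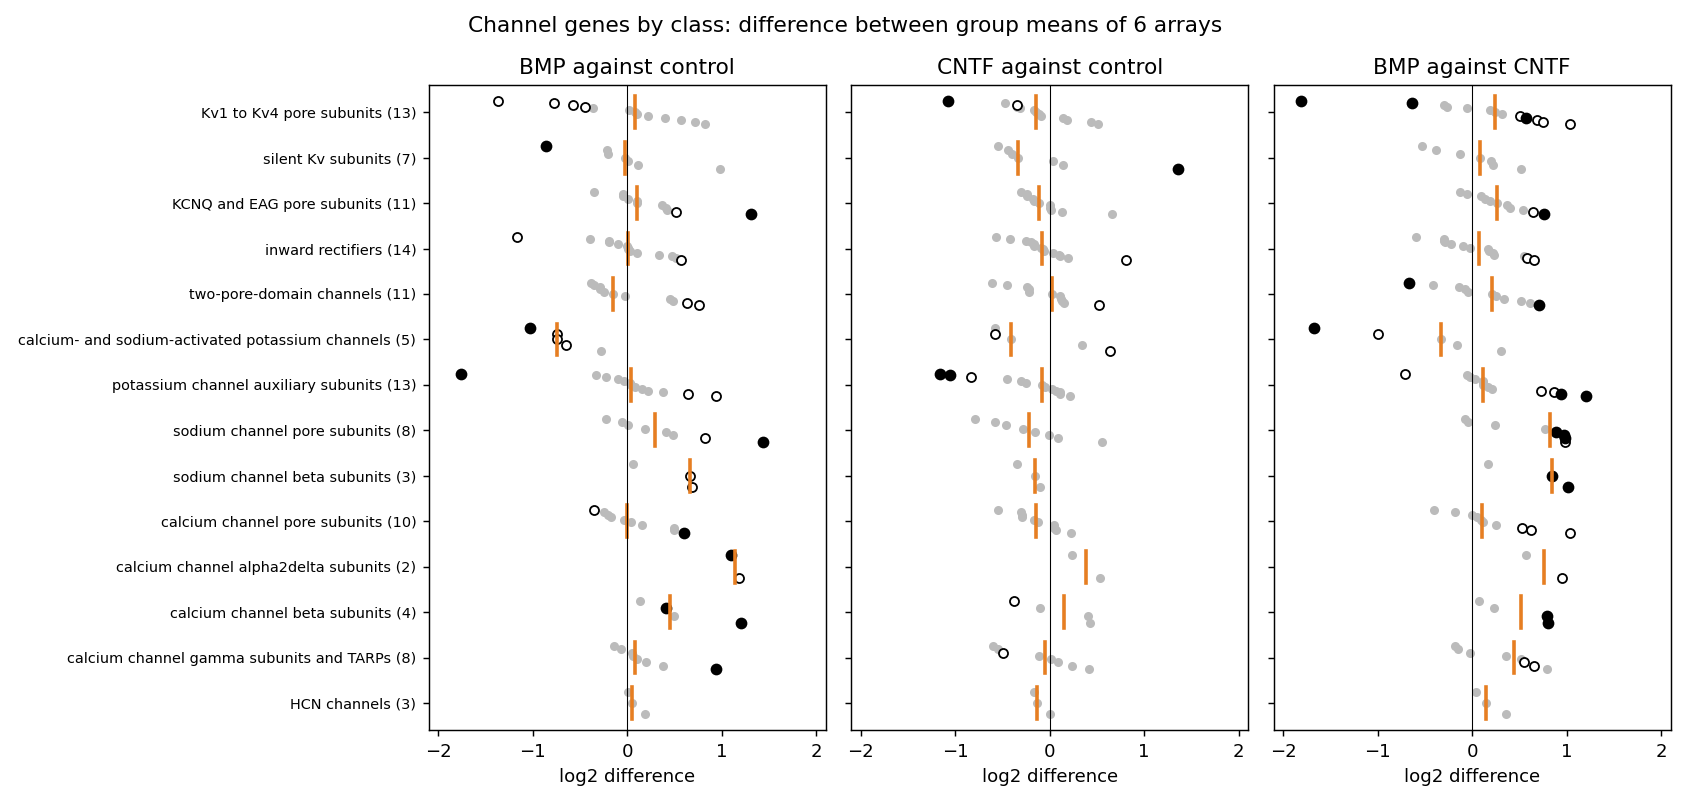
Log2 difference of each of the 112 channel genes (horizontal axis) by channel class, with the number of genes in brackets, in the 3 comparisons. Each point is a gene; filled black points are called at a limma adjusted p under 0.05, open points only with the title number as a block, grey points in neither fit, and the orange bar is the class median. Sodium channel genes lie mostly right of 0 in BMP against CNTF, with a median of 0.83 for pore and 0.85 for beta subunits.

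Channels of the Kv4 type, which carry the A-type potassium current that delays firing, and their partners gave 3 of the 4 CNTF calls. Kcnd2 encodes the pore subunit Kv4.2 and had the highest mean of the 13 Kv1 to Kv4 probe sets. Its log2 level ran from 12.87 to 14.02 (median 13.41) in the controls, 12.29 to 13.47 (12.73) with BMP and 11.41 to 12.97 (12.38) with CNTF. With CNTF it fell by 1.08 ± 0.24 log2 (limma adjusted p = 0.0171), and every CNTF array lay below its own-numbered control, although the ranges of the groups overlapped. A second Kcnd2 probe set gave -1.16 (limma adjusted p = 0.0151). With BMP the Kcnd2 difference was -0.58 (limma adjusted p = 0.182, and 0.021 with the block), and BMP lay 0.51 above CNTF (limma adjusted p = 0.273, and 0.0432 with the block).

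Kcnip2 and Kcnip3 encode KChIPs, calcium-binding proteins that bind the Kv4 amino terminus and govern its surface number and gating; KChIP3 is also known as the transcriptional repressor DREAM. Kcnip2 lay at 9.21 to 10.54 (median 10.05) in the controls, 9.44 to 10.84 (9.94) with BMP and 8.23 to 9.27 (8.86) with CNTF. It fell by 1.16 ± 0.27 log2 with CNTF against control (limma adjusted p = 0.0255) and was 1.20 ± 0.27 higher with BMP than with CNTF (limma adjusted p = 0.0104). The BMP and CNTF ranges did not overlap, and those of BMP and the controls covered nearly the same span. The call against control was lost when any of control arrays 1, 2 or 6 or CNTF arrays 2, 3 or 5 was left out (limma adjusted p = 0.0521 to 0.0742), and 2 other Kcnip2 probe sets, at 0.39 and -0.85, were not called.

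Kcnip3 fell with both additions. Its log2 level was 11.59 to 12.60 (median 12.31) in the controls, 9.59 to 11.10 (10.61) with BMP and 10.95 to 11.56 (11.20) with CNTF. Every BMP and every CNTF array lay below every control. The log2 difference was -1.76 ± 0.21 with BMP, 3.4-fold lower (limma adjusted p = 0.000361), and -1.05 ± 0.21 with CNTF, 2.08-fold lower (limma adjusted p = 0.00854). Both calls held when any single array was left out, and a second probe set gave -1.66 and -1.10 (limma adjusted p = 0.00132 and 0.037). BMP lay 0.71 below CNTF in a difference that was called only with the block (limma adjusted p = 0.0529 and 0.00871).

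Kcnd3, the Kv4.3 pore subunit, separated BMP from CNTF. It lay at 11.76 to 12.17 (median 12.11) in the controls, 12.04 to 12.66 (12.27) with BMP and 11.48 to 11.98 (11.69) with CNTF. BMP exceeded CNTF by 0.57 ± 0.11 log2 (limma adjusted p = 0.00375) and the ranges did not overlap; a further probe set gave 0.55 (limma adjusted p = 0.00678). Against control the CNTF difference was -0.35, negative in 6 of 6 same-numbered pairs and called only with the block (limma adjusted p = 0.138 and 0.0112). Another Kcnd3 probe set was at 0.18 between BMP and CNTF (limma adjusted p = 0.862). Kcnip1 was at -0.10 with BMP against control, -0.83 with CNTF against control (limma adjusted p = 0.357, and 0.0423 with the block) and 0.73 between BMP and CNTF (limma adjusted p = 0.302, and 0.0473 with the block). Its 2 other probe sets, at -0.05 and -0.76 with CNTF against control, were not called. Dpp6, a transmembrane partner that traffics Kv4 channels, lay at 12.49 to 13.51 (median 12.87) in the controls, 12.61 to 13.63 (13.10) with BMP and 12.03 to 12.39 (12.28) with CNTF, all CNTF arrays below all others. It fell by 0.71 ± 0.17 log2 with CNTF against control (limma adjusted p = 0.0244) and was 0.89 higher with BMP than with CNTF (limma adjusted p = 0.0026). A second Dpp6 probe set gave -0.52 and 0.74 (limma adjusted p = 0.334 and 0.0477).

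Over the 3 Kv4 pore subunits, 4 KChIPs, Dpp6 and Dpp10, a group formed after its values were seen, 4 of 9 genes fell and 0 rose with CNTF, and 8 of 9 differences were negative with a median of -0.83. With BMP against control 1 of 9 fell and 0 rose, with a median of 0.04, and between BMP and CNTF 3 of 9 were higher and 0 lower, with a median of 0.57. With the block these counts became 0 higher and 6 lower, 1 and 3, and 6 and 1. The group holds no test of its own. Of all named genes 2.04% were called higher and 0.823% lower with CNTF, or 5.44% and 4.06% with the block. For BMP against control the shares were 4.21% and 3.02%, and between BMP and CNTF 3.74% and 3.76%. With the block they were 10.7% and 9.28%, and 9.38% and 8.82%. As the group was picked with its values in view, its counts beside these shares say nothing about Kv4 channels as a set.

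**Figure D2:**
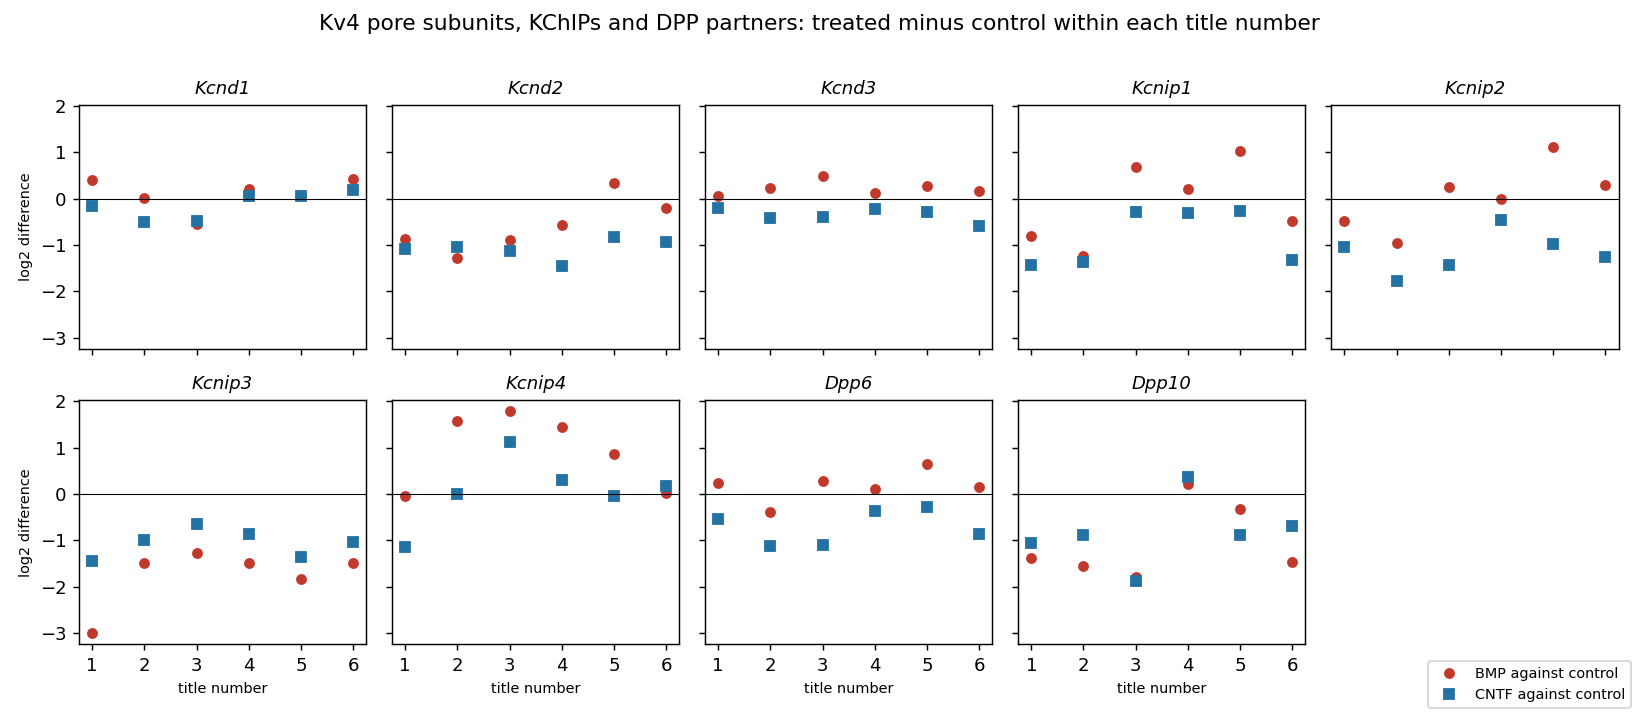
Treated minus control log2 difference (vertical axis) within each title number (horizontal axis) for the Kv4 pore subunits, KChIPs and DPP partners; red circles are BMP and blue squares CNTF, 1 array each, against the control of the same number. Kcnd2, Kcnd3, Kcnip1, Kcnip2, Kcnip3 and Dpp6 lie below 0 with CNTF in 6 of 6 numbers, and Kcnip3 also with BMP.

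Promoter sequences are shown for Kcnd2, Kcnip2 and Kcnip3, which fell with CNTF, and for 3 called genes that hold a searched motif. They are the 250 bases before the RefSeq start, build GRCr8, on the strand of the gene from 5′ to 3′; 77 of the 112 genes had an entry. The motifs were a GC element bound by SMADs, GGCGCC, and a STAT element, TTCNNNGAA. Both read the same on the 2 strands, do not overlap each other here, and are in capitals where found. The promoters lie at chr4:50742235-50742484 (+ strand, Kcnd2), chr1:254613899-254614148 (- strand, Kcnip2), chr3:135195411-135195660 (- strand, Kcnip3), chr13:106252966-106253215 (+ strand, Kcnh1), chr3:71701378-71701627 (- strand, Scn9a) and chr4:161262353-161262602 (- strand, Kcna6).
Kcnd2: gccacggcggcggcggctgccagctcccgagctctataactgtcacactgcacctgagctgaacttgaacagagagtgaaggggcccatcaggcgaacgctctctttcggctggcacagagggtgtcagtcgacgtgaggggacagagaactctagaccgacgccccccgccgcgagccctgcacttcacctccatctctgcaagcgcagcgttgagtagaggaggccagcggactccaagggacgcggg
Kcnip2: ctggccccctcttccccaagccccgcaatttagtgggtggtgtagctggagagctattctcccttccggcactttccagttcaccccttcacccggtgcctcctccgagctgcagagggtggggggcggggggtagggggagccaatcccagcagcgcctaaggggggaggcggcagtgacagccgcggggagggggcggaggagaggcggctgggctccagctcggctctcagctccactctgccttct
Kcnip3: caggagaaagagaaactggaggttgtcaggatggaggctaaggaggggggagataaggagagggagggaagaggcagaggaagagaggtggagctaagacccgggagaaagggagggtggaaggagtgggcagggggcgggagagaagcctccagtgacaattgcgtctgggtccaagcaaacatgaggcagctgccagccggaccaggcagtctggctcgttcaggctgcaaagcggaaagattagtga
Kcnh1: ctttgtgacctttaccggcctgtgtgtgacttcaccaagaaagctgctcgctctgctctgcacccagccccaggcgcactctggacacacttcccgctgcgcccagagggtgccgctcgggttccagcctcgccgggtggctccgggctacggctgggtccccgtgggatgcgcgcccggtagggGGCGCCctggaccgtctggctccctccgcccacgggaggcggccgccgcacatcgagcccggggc
Scn9a: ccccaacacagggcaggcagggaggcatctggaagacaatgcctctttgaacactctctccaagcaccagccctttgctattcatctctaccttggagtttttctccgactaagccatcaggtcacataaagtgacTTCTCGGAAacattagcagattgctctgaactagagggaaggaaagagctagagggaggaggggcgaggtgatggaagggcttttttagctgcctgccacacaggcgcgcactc
Kcna6: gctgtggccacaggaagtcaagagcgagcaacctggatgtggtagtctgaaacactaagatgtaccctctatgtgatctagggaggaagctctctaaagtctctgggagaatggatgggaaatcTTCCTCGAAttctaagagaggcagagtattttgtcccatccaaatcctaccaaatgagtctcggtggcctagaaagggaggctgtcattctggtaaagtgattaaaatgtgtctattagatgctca
Neither motif occurs in the windows of Kcnd2, Kcnip2 and Kcnip3. Kcnh1 holds 1 GGCGCC, and Scn9a and Kcna6 hold 1 TTCNNNGAA each. Of all 27457 promoters 9.24% hold GGCGCC and 7.52% TTCNNNGAA. Among the 77 channel promoters 11 (14.3%) and 5 (6.49%) do, and among the 18 of called genes 1 (5.56%) and 2 (11.1%). A match describes letters only.

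Of the calcium- and sodium-activated potassium channels, which link firing or calcium entry to potassium efflux, all 5 lay lower with BMP than in the controls and 1 was called (4 with the block). Of all named genes 3.02% were called lower, or 9.28% with the block, and 6983 of 14217 differences were negative. The gene called without the block was Kcnt1 (Slack), a sodium-activated channel. Its log2 level was 9.10 to 10.17 (median 9.64) in the controls, 8.18 to 9.08 (8.60) with BMP and 10.07 to 10.66 (10.24) with CNTF. All BMP arrays lay below all others. Kcnt1 fell by 1.03 ± 0.20 log2 with BMP against control (limma adjusted p = 0.00422), and lay 1.67 ± 0.20 below CNTF, 3.18-fold (limma adjusted p = 4.67e-05). CNTF exceeded the controls by 0.64, in 6 of 6 pairs, a difference called only with the block (limma adjusted p = 0.122 and 0.00413). A second probe set gave -1.44 between BMP and CNTF (limma adjusted p = 0.0046) but -0.68 against control (limma adjusted p = 0.202). Another Kcnt1 probe set went the other way, at 0.30 and 0.19, and was not called (limma adjusted p = 0.709 and 0.814).

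Kcnn3, the small-conductance channel SK3, lay at 7.75 to 9.36 (median 8.83) with BMP and 8.92 to 10.36 (9.76) with CNTF, and the ranges overlapped. The difference of -0.99 was called only with the block (limma adjusted p = 0.061 and 0.00109). Kcnn4, the intermediate-conductance channel, differed by -0.74 with BMP and -0.57 with CNTF against control, both called only with the block (limma adjusted p = 0.00371 and 0.0326 there). Its means with BMP (7.49) and CNTF (7.65) lay under the 20th percentile level of 7.87, so these sizes depend on the constant. They were -1.44 and -1.26 with a constant of 16, and -0.35 and -0.26 with the 40th percentile. Kcnma1, the large-conductance BK channel with the highest mean of the class, was at -0.28 and -0.58 and was not called in either fit.

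Of the Kv1 channels, delayed rectifiers at axons and nerve terminals, Kcna1 and Kcna6 were lower with BMP than with CNTF. Kcna1 (Kv1.1) lay at 6.99 to 9.60 (median 9.04) in the controls, 6.93 to 7.74 (7.18) with BMP and 7.02 to 9.92 (9.44) with CNTF. The arrays numbered 1 were the lowest of each group, at 6.99, 6.93 and 7.02. BMP lay 1.81 ± 0.45 log2 below CNTF (limma adjusted p = 0.0187; -2.93 with a constant of 16 and -1.001 with the 40th percentile), and lower in 6 of 6 pairs. The call was lost without CNTF array 6 (limma adjusted p = 0.0526), and the difference was -1.37 over numbers 1 to 3 (limma adjusted p = 0.411) and -2.25 over numbers 4 to 6 (limma adjusted p = 0.00462). Against control, BMP was at -1.37, called only with the block (limma adjusted p = 0.0788 and 0.00766).

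Kcna6 (Kv1.6) lay at 9.32 to 9.87 (median 9.75) in the controls, 8.89 to 9.34 (9.29) with BMP and 9.46 to 10.21 (9.95) with CNTF. The difference of BMP from CNTF was -0.63 ± 0.15 log2 (limma adjusted p = 0.0126) and these ranges did not overlap, while 2 other Kcna6 probe sets were at 0.30 and -0.05. BMP against control was at -0.45, called only with the block (limma adjusted p = 0.0795 and 0.0301). Kcna2 (Kv1.2) was at -0.77 with BMP against control, negative in 6 of 6 pairs and likewise called only with the block (limma adjusted p = 0.244 and 0.00913). A second Kcna2 probe set was at -0.22 (limma adjusted p = 0.714 without the block). Kcnab1, a Kv beta subunit that binds Kv1 channels, stood the other way. It lay at 9.26 to 10.40 (median 9.94) in the controls, 10.03 to 11.23 (10.49) with BMP and 9.28 to 10.16 (9.53) with CNTF, the groups overlapping. It was 0.94 ± 0.22 higher with BMP than with CNTF (limma adjusted p = 0.0132), while a second probe set was at 0.29 (limma adjusted p = 0.609). Against control the 0.64 was called only with the block (limma adjusted p = 0.101 and 0.00388). Kcnc4 (Kv3.4), of the fast-firing Kv3 family, was 1.03 higher with BMP than with CNTF with the block alone (limma adjusted p = 0.0514 and 0.0121), and the ranges did not overlap. A second Kcnc4 probe set was at 0.17 (limma adjusted p = 0.86 without the block).

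Silent Kv subunits form no channel alone and modify Kv2 channels; all 7 lay below the table median. Kcns3 was the 1 channel gene that rose with CNTF, from 6.98 to 8.18 (median 7.62) in the controls to 8.25 to 9.72 (8.90), without overlap. Its log2 difference was 1.36 ± 0.35 (limma adjusted p = 0.0414; 2.27 with a constant of 16 and 0.73, not called, with the 40th percentile), and CNTF arrays 2, 3, 4, 5 and 6, control arrays 1, 3, 5 and 6 and BMP array 3 each ended the call when left out (limma adjusted p = 0.0516 to 0.107). With BMP it ran from 7.87 to 10.13 (median 8.38), at 0.98 above control (limma adjusted p = 0.108). Kcns1 fell with BMP by 0.86 ± 0.23 log2 (limma adjusted p = 0.0271; -0.49 with the 40th percentile), from 7.89 to 9.41 (median 9.00) in the controls to 7.66 to 8.44 (7.85), with overlapping ranges. The call was lost without control array 1, 2, 3 or 6 or BMP array 1, 3 or 5 (limma adjusted p = 0.0515 to 0.0664).

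The EAG family also held BMP calls. Kcnh1 (EAG1) rose from 7.01 to 8.85 (median 8.09) in the controls to 8.73 to 9.95 (9.49) with BMP. Only the lowest BMP array lay within the control range. The log2 difference was 1.31 ± 0.27 (limma adjusted p = 0.00655), or 0.78 with a constant at the 40th percentile. It was 1.61 over numbers 1 to 3 (limma adjusted p = 0.0463) and 0.999 over numbers 4 to 6 (limma adjusted p = 0.333). CNTF arrays lay between, at 8.14 to 9.21 (median 8.85), 0.66 above control (limma adjusted p = 0.318) and 0.65 below BMP (limma adjusted p = 0.203, and 0.0497 with the block). Kcnh2 (ERG1, a channel that speeds the return to rest) lay at 8.75 to 9.50 (median 9.25) in the controls, 9.33 to 9.87 (9.82) with BMP and 8.27 to 9.17 (9.09) with CNTF. It was 0.76 ± 0.17 higher with BMP than with CNTF (limma adjusted p = 0.0109), without overlap, and at 0.52 above control, called only with the block (limma adjusted p = 0.087 and 0.04). None of the 11 KCNQ and EAG genes fell in any comparison, in either fit. Without the block 0 had an unadjusted p under 0.05 in that direction. Of all named genes 3.02%, 0.823% and 3.76% were called lower, or 9.28%, 4.06% and 8.82% with the block.

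Inward rectifiers and two-pore-domain channels carry background potassium current that sets the resting potential. Of 14 inward rectifiers 0 were called in any comparison. Unadjusted p-values under 0.05 numbered 3, 2 and 3, and the blocked fit called 2, 1 and 2. Of all named genes the blocked fit called 10.7% higher and 9.28% lower, 5.44% and 4.06%, and 9.38% and 8.82%. Kcnj14 was at 0.57 with BMP against control and 0.66 against CNTF, called only with the block (limma adjusted p = 0.0242 and 0.0111 there). Kcnj3, a subunit of G protein-gated channels, was at 0.58 between BMP and CNTF (limma adjusted p = 0.247, and 0.0478 with the block). Its 2 other probe sets were at 0.33 and -0.20 (limma adjusted p = 0.458 and 0.841 without the block). Kcnj11, the pore of the ATP-sensitive channel and the brightest of the class, was at -0.20 with BMP and -0.42 with CNTF, not called. Of the 11 two-pore-domain channels Kcnk9 (TASK-3) was 0.70 ± 0.17 higher with BMP than with CNTF (limma adjusted p = 0.0181; 1.19 with a constant of 16 and 0.35 with the 40th percentile), at 8.29 to 8.60 (median 8.50) against 7.21 to 8.23 (7.79), without overlap. Kcnk10 (TREK-2) was 0.67 lower with BMP, at 8.94 to 9.73 (median 9.64) against 9.63 to 10.68 (10.21), with overlap. That call (limma adjusted p = 0.0399; second probe set -0.71, limma adjusted p = 0.0493) was lost without BMP array 3, 4, 5 or 6 or CNTF array 1, 2 or 3 (limma adjusted p = 0.0546 to 0.0944). Against control Kcnk10 was at 0.52 with CNTF, called only with the block (limma adjusted p = 0.218 and 0.033). Kcnk2 (TREK-1), brightest of the class, was not called, at -0.35 with BMP and -0.61 with CNTF against control.

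**Figure D3:**
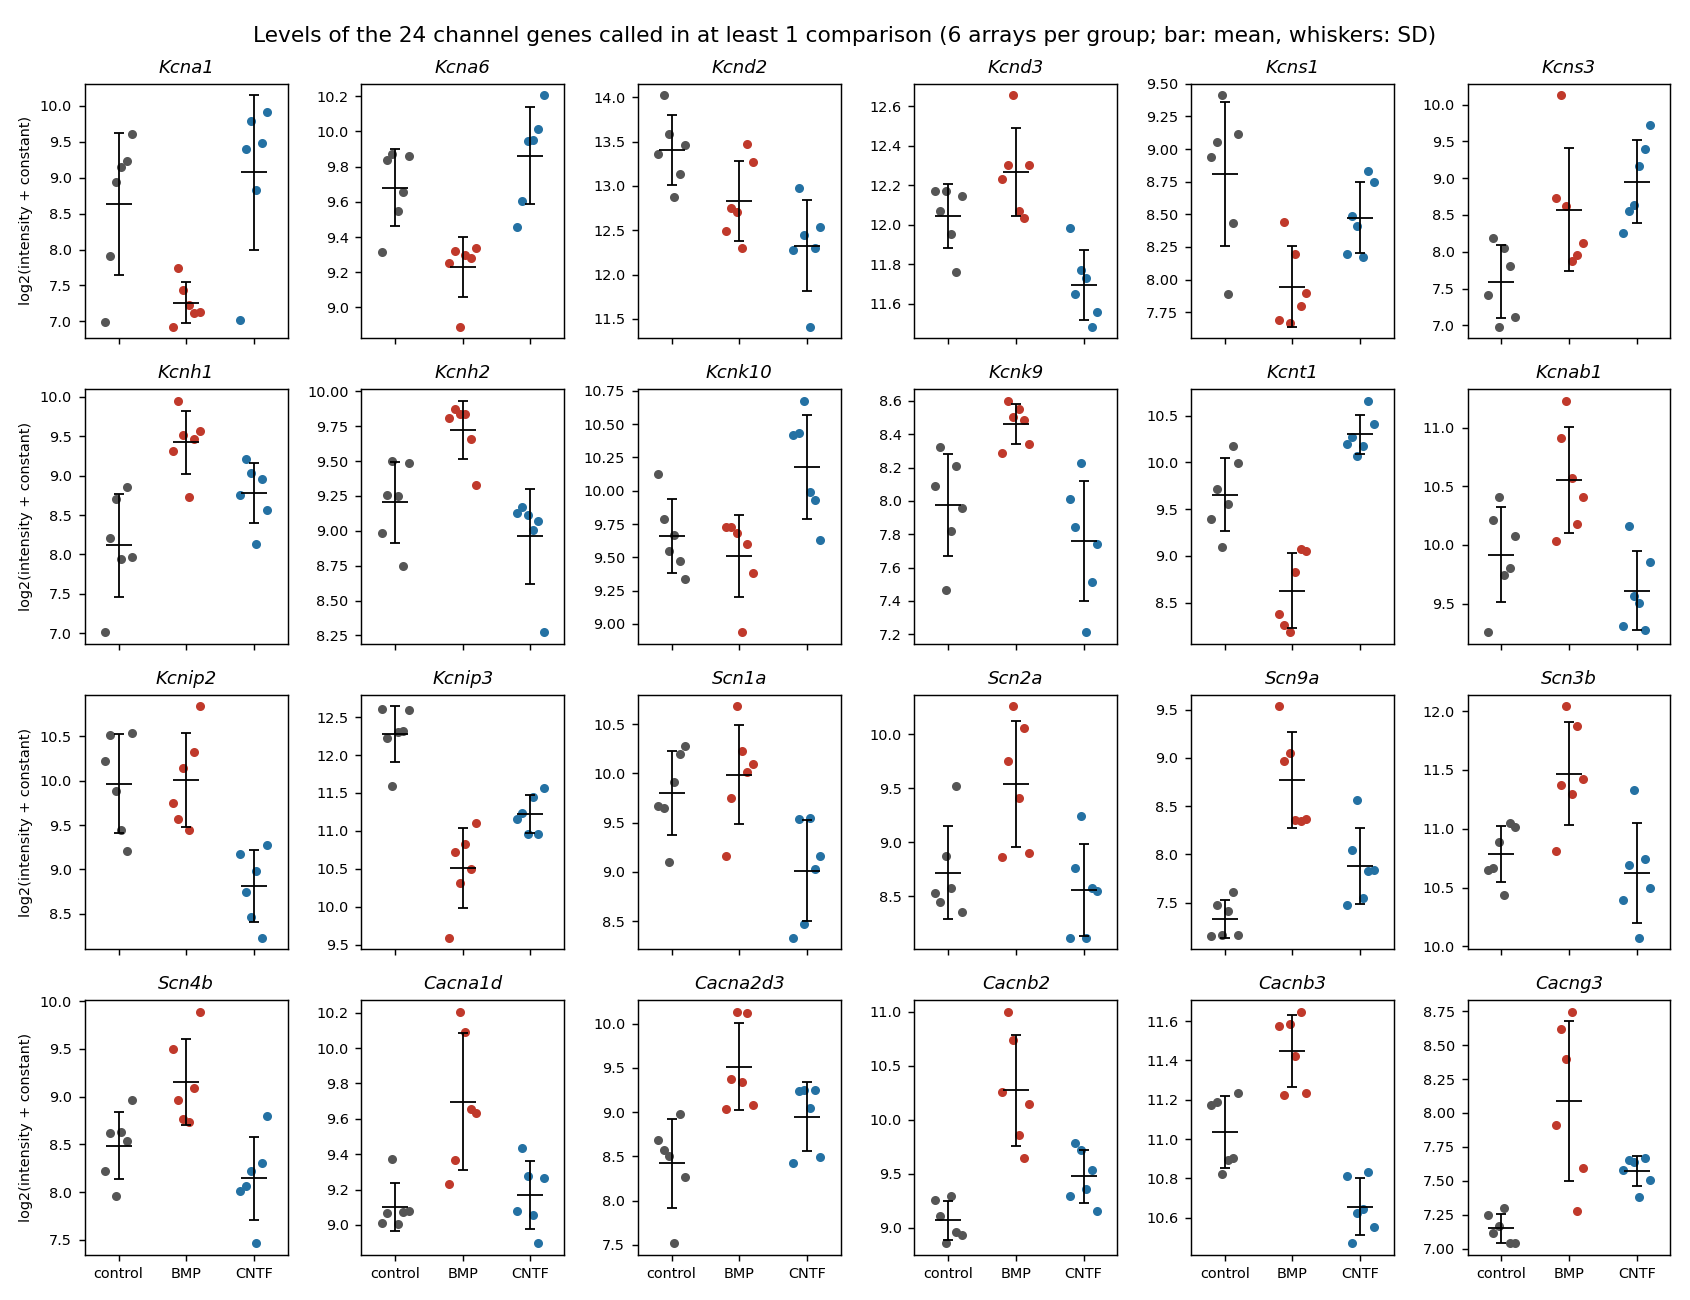
Log2 level, log2(intensity + constant), of the 24 channel genes called in at least 1 comparison, 1 point per array, with the mean (bar) and SD (whiskers) of the 6 arrays of each group; the vertical axes differ between genes and do not start at 0. Kcnip3 is highest in the controls, Kcnt1 lowest with BMP, and Scn9a and Cacnb2 highest with BMP.

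Of the sodium channel genes, 3 of 8 pore subunits and 2 of 3 beta subunits were higher with BMP than with CNTF and 0 were lower, and 9 of the 11 differences were positive. Of all named genes 3.74% were higher and 3.76% lower, and 7271 of 14217 differences were positive. The calls of the 3 pore subunits, Scn9a, Scn1a and Scn2a, ended in a fit on the compared groups alone (limma adjusted p = 0.0522 to 0.0545). In the same comparison 3 of 20 neuronal markers were higher (Snap25 by 1.01, Syt1 by 1.05 and Gad1 by 2.09) and 2 lower (Gap43 at -0.67 and Elavl3 at -0.53), or 7 and 2 with the block. With the block 9.38% of all named genes were higher and 8.82% lower. Of the oligodendrocyte lineage markers, 9 of 14 and, for precursors, 5 of 10 were lower with BMP than with CNTF. Their part in the sodium channel differences was not tested. Against control 9 of 11 were positive with BMP and 2 of 11 with CNTF, but the 1 call was Scn9a with BMP. Scn9a (Nav1.7) rose from 7.16 to 7.61 (median 7.29) in the controls to 8.35 to 9.53 (8.66) with BMP. The log2 difference was 1.44 ± 0.22 (limma adjusted p = 0.00087). It was 2.49 with a constant of 16 and 0.72 with the 40th percentile. Every BMP array lay above every control, and no single array decided the call. The difference was 1.91 over numbers 1 to 3 (limma adjusted p = 0.00694) and 0.96 over numbers 4 to 6 (limma adjusted p = 0.0921). With CNTF, Scn9a lay at 7.48 to 8.57 (median 7.83), 0.55 above control (limma adjusted p = 0.282), and BMP exceeded it by 0.88 (limma adjusted p = 0.0173; 1.33 and 0.48 with those constants).

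Scn1a (Nav1.1) and Scn2a (Nav1.2), main neuronal pore subunits, were higher with BMP than with CNTF by 0.97 ± 0.26 and 0.98 ± 0.27 log2 (limma adjusted p = 0.0319 and 0.0328). Scn1a lay at 9.16 to 10.68 (median 10.05) with BMP and 8.33 to 9.55 (9.10) with CNTF, Scn2a at 8.87 to 10.26 (9.58) and 8.11 to 9.25 (8.56), and both ranges overlapped. Controls of Scn1a ran from 9.10 to 10.28 (median 9.79) and those of Scn2a from 8.35 to 9.52 (8.55). Scn1a lost its call without BMP array 3, 4, 5 or 6 or CNTF array 1, 3, 5 or 6 (limma adjusted p = 0.0511 to 0.0835). Scn2a lost it without BMP array 2, 3 or 5 or CNTF array 1, 4, 5 or 6 (limma adjusted p = 0.0582 to 0.0864). Scn3a (Nav1.3), brightest of the pore subunits, was 0.99 higher with BMP than with CNTF in 6 of 6 pairs, called only with the block (limma adjusted p = 0.0711 and 0.00378). Against control Scn2a was at 0.82 with BMP, also called only with the block (limma adjusted p = 0.0769 and 0.00622).

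The beta subunits, which tune gating and bind cell adhesion proteins, followed. Scn3b lay at 10.44 to 11.05 (median 10.78) in the controls, 10.81 to 12.04 (11.40) with BMP and 10.07 to 11.33 (10.60) with CNTF. Scn4b lay at 7.96 to 8.96 (median 8.57), 8.73 to 9.89 (9.03) and 7.46 to 8.80 (8.14). Ranges overlapped for both. BMP exceeded CNTF by 0.85 ± 0.20 log2 in Scn3b (limma adjusted p = 0.0161) and by 1.01 ± 0.23 in Scn4b (limma adjusted p = 0.0119; 0.60 with a constant at the 40th percentile), each in 6 of 6 pairs, and a second Scn3b probe set gave 0.97 (limma adjusted p = 0.00771). Against control, Scn3b at 0.69 and Scn4b at 0.67 with BMP were called only with the block (limma adjusted p = 0.00163 and 0.0167 there; 0.053 and 0.105 without). Scn2b was at 0.17 between BMP and CNTF (limma adjusted p = 0.762).

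**Figure D4:**
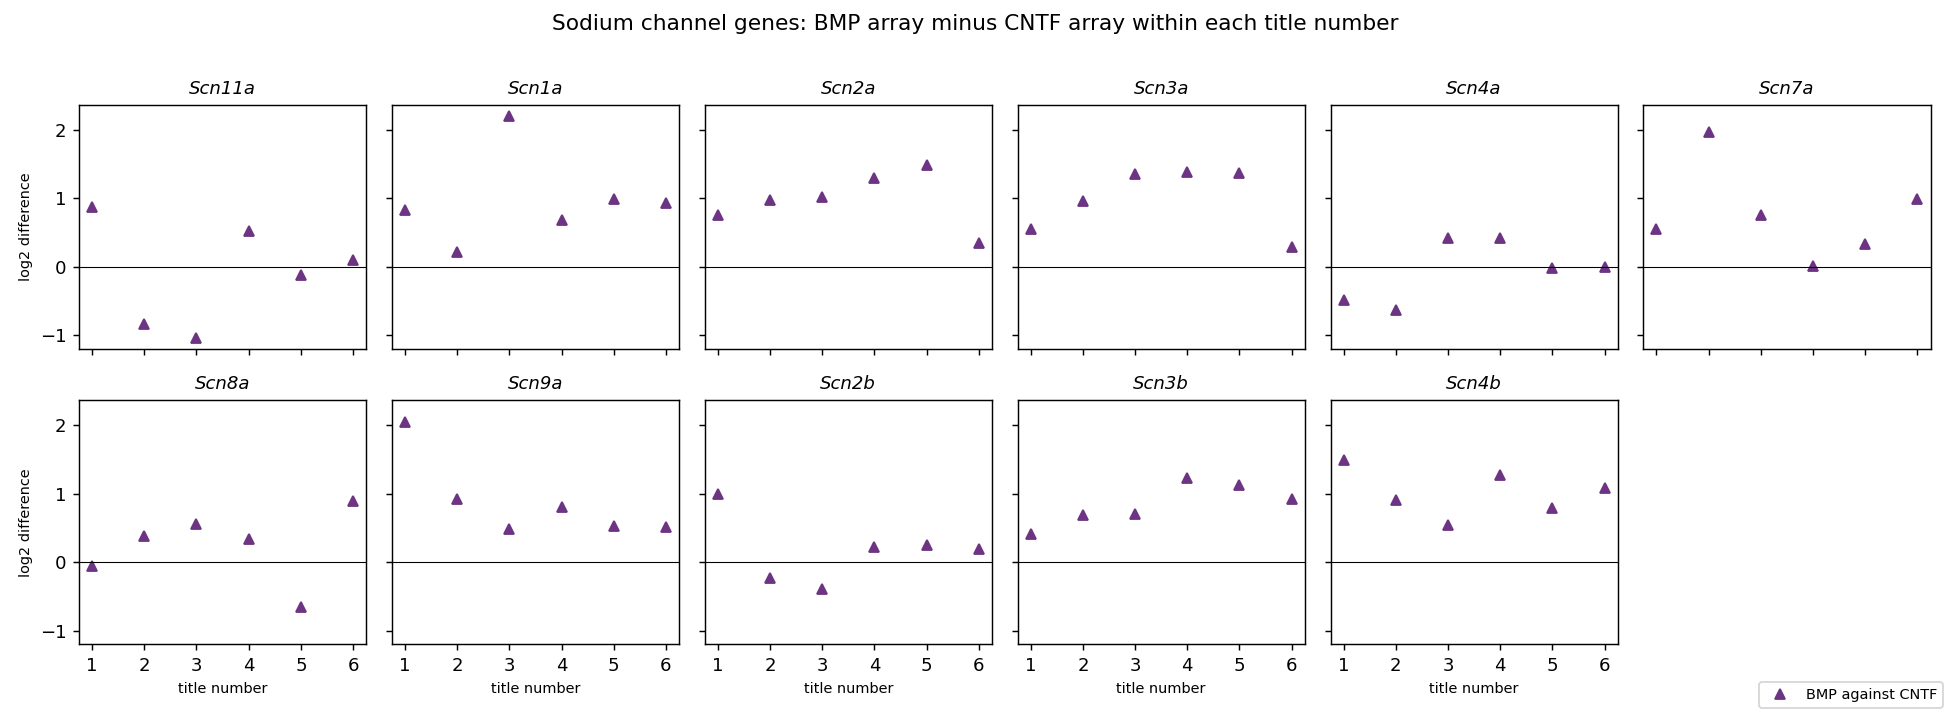
BMP minus CNTF log2 difference (vertical axis) of the 11 sodium channel genes within each title number (horizontal axis), 1 array of each. Scn1a, Scn2a, Scn3a, Scn9a, Scn3b and Scn4b lie above 0 in 6 of 6 numbers, and so does Scn7a, which was called in neither fit. Scn4a and Scn11a lie on both sides of 0.

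Of the calcium channel genes, 1 of 10 pore, 1 of 2 alpha2delta, 2 of 4 beta and 1 of 8 gamma and TARP genes rose with BMP against control. Of all named genes 4.21% rose. The cytoplasmic beta subunits bring the pore to the membrane. Cacnb2 rose from 8.86 to 9.29 (median 9.03) in the controls to 9.64 to 11.00 (10.20) with BMP, all BMP arrays above all controls. The log2 difference was 1.21 ± 0.20, 2.31-fold (limma adjusted p = 0.00135). A second probe set gave 1.26 (limma adjusted p = 0.000904) and 1 more, at 0.73, was not called. Cacnb2 differed by 1.59 over numbers 1 to 3 (limma adjusted p = 0.00618) and by 0.82 over numbers 4 to 6 (limma adjusted p = 0.186). With CNTF it lay at 9.16 to 9.79 (median 9.45), 0.80 below BMP (limma adjusted p = 0.0193), a call lost without BMP array 3 or CNTF array 6 (limma adjusted p = 0.0528 to 0.0537). Cacnb3, the brightest beta subunit, lay at 10.82 to 11.24 (median 11.04) in the controls, 11.23 to 11.65 (11.50) with BMP and 10.47 to 10.83 (10.63) with CNTF.

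Cacnb3 stood on opposite sides of the controls with the 2 additions. BMP exceeded CNTF by 0.79 ± 0.11 log2, without overlap and with every single array left out (limma adjusted p = 0.000216). Cacnb3 rose by 0.41 ± 0.11 with BMP against control (limma adjusted p = 0.031), with ranges that met at their ends, a call lost without control array 3, 4 or 5 or BMP array 1, 3 or 5 (limma adjusted p = 0.0634 to 0.0738). CNTF was at -0.38, lower in 6 of 6 pairs and called only with the block (limma adjusted p = 0.0886 and 0.033).

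The alpha2delta subunits, extracellular proteins that raise channel density and bind gabapentin in some forms, were both over 1 log2 higher with BMP. Cacna2d3 rose from 7.52 to 8.98 (median 8.54) in the controls to 9.03 to 10.13 (9.36), without overlap. The difference was 1.09 ± 0.26 (limma adjusted p = 0.0139), or 0.70 with a constant at the 40th percentile. With CNTF Cacna2d3 was 0.53 above control (limma adjusted p = 0.448) and 0.57 below BMP (limma adjusted p = 0.249), neither called. Cacna2d1 ran from 7.00 to 8.99 (median 8.49) in the controls and 8.06 to 10.76 (9.30) with BMP, and its 1.19 ± 0.46 was called only with the block (limma adjusted p = 0.146 and 0.00456). Between BMP and CNTF it was at 0.95 (limma adjusted p = 0.292, and 0.0189 with the block).

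Of the 8 gamma subunits and TARPs, some of which carry AMPA receptors rather than calcium channels, Cacng3 rose with BMP by 0.94 ± 0.20 log2 (limma adjusted p = 0.00772; 1.96 with a constant of 16 and 0.42 with the 40th percentile). It lay at 7.04 to 7.30 (median 7.14) in the controls and 7.27 to 8.74 (8.15) with BMP, overlapping at 1 array and below the table median in both. The Cacng3 difference was 1.13 over numbers 1 to 3 (limma adjusted p = 0.0166) and 0.75 over numbers 4 to 6 (limma adjusted p = 0.519). With CNTF Cacng3 was 0.42 above control (limma adjusted p = 0.439) and 0.52 below BMP (limma adjusted p = 0.155). Cacng2 (stargazin) was at -0.49 with CNTF against control and 0.55 between BMP and CNTF, both called only with the block (limma adjusted p = 0.0498 and 0.0169 there), and Cacng4, brightest of the class, was not called in either fit. A second Cacng2 probe set was at 0.10 and 0.76 in these comparisons (limma adjusted p = 0.977 and 0.36 without the block).

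Of 10 calcium channel pore subunits 1 was called. Cacna1d (Cav1.3, an L-type channel that opens at low voltage) rose with BMP by 0.60 ± 0.16 log2 (limma adjusted p = 0.0355), from 9.00 to 9.37 (median 9.07) to 9.23 to 10.21 (9.64), with overlap. The call was lost without control array 1, 2, 4, 5 or 6 or BMP array 3, 4 or 5 (limma adjusted p = 0.0521 to 0.0895), and its 2 other probe sets were at 0.13 and -0.35. Cacna1b (N-type) and Cacna1g (T-type) were 0.62 and 1.04 higher with BMP than with CNTF, both called only with the block (limma adjusted p = 0.0302 and 0.0107 there). A second Cacna1b probe set was at -0.10 (limma adjusted p = 0.913 without the block). Cacna1h, the brightest pore subunit, was at -0.35 with BMP against control, called only with the block (limma adjusted p = 0.0912 and 0.0377). Its second probe set was at 0.18 (limma adjusted p = 0.713 without the block). The 3 HCN genes, which carry the hyperpolarisation-activated pacemaker current, were called in no comparison by either fit. Hcn2, the brightest, lay at 9.18 to 9.74 (median 9.66) in the controls, 9.09 to 10.11 (9.50) with BMP and 8.96 to 9.82 (9.46) with CNTF. Among the 3 genes 0, 0 and 1 had an unadjusted p under 0.05.

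A list of channel partners gave 29 measured genes. It holds proteins that anchor channels or travel with them, but also regulators and the sodium leak channel Nalcn. With BMP 4 rose and 3 fell against control, with CNTF 0 rose and 2 fell, and BMP against CNTF gave 3 higher and 1 lower (with the block 7 and 8, 2 and 6, and 9 and 2). The shares of all named genes were 4.21% and 3.02%, 2.04% and 0.823%, and 3.74% and 3.76%. With the block these shares were 10.7% and 9.28%, 5.44% and 4.06%, and 9.38% and 8.82%. Fgf13, an intracellular FGF that binds sodium channels, lay at 10.79 to 12.10 (median 11.15) in the controls, 11.82 to 13.65 (12.57) with BMP and 9.75 to 11.98 (11.16) with CNTF. It rose by 1.28 ± 0.34 log2 with BMP (limma adjusted p = 0.031) and exceeded CNTF by 1.67 (limma adjusted p = 0.00521). Its relative Fgf12 moved the other way: it lay at 11.45 to 11.79 (median 11.68) in the controls, 10.91 to 11.41 (11.13) with BMP and 10.43 to 10.96 (10.88) with CNTF, and neither treated range met the controls. Fgf12 fell by 0.52 ± 0.12 with BMP (limma adjusted p = 0.0145) and by 0.90 ± 0.12 with CNTF (limma adjusted p = 0.000263). Of 2 other Fgf12 probe sets, at -0.48 each with BMP and -0.55 and -0.64 with CNTF, 1 was called, with CNTF (limma adjusted p = 0.0195).

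Among axonal adhesion and anchor proteins, Nrcam rose by 1.20 log2 with BMP (limma adjusted p = 0.00249), from 10.41 to 11.66 (median 11.07) to 11.84 to 12.61 (12.15), without overlap, and 2 other probe sets gave 1.08 and 0.88 (limma adjusted p = 0.00584 and 0.00487). Cntnap2, which clusters Kv1 channels beside the node of Ranvier, rose by 1.09 with BMP against control (limma adjusted p = 0.0081), from 7.08 to 8.92 (median 8.05) to 8.73 to 9.52 (9.20), and lay 0.88 above CNTF (limma adjusted p = 0.0288). Its 2 other probe sets were not called, at 0.51 and 0.34 against control and 0.52 and 0.07 against CNTF. Ank2, an ankyrin, rose by 0.57 (limma adjusted p = 0.0145), from 13.27 to 13.85 (median 13.62) to 13.59 to 14.42 (14.27). Of its 2 other probe sets, at 0.76 and -0.21, neither was called. The ranges of both genes overlapped. Nfasc, which has axonal and glial forms at the node, fell by 1.31 ± 0.35 with BMP against control (limma adjusted p = 0.0295) and lay 1.82 ± 0.35 below CNTF (limma adjusted p = 0.00316), at 11.80 to 12.93 (median 12.50) against 12.25 to 14.49 (13.78) in the controls and 12.74 to 14.93 (14.43) with CNTF. Its 4 other probe sets lay at -1.37 to -0.07 against control, none called, and at -1.98 to -0.20 against CNTF, 2 of them called. Nalcn, the sodium leak channel, fell by 1.09 ± 0.26 with BMP (limma adjusted p = 0.0156), from 12.31 to 13.25 (median 12.47) to 10.77 to 12.62 (11.51).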

How the data were processed

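The authors deposited 1 table of linear intensity values, a column for each of 18 arrays. Neither file headers nor labels name a summary method or scaling target, which is thus not given in the sources used here. Trimmed of 2% at each end, array means were 2500.7 to 2500.8. Gene names came from the platform annotation; all 112 channel genes matched current rat RefSeq by gene ID with 0 symbols differing. After 57 control probe sets were left out, log2(intensity + 116.655), where the added value is the table's 20th percentile, was fitted with limma 3.58.1 (R 4.3.3) on group means over all 18 arrays, with an intensity trend. Arrays came with no counts or depth, so their number limits the precision. The pipeline was run on simulated data with noise drawn independently for each array. Those data lack the shared deviation of same-numbered arrays, so that run does not show how the fit behaves with it.

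Arrays with the same title number deviated together from their group means in all 18 pairs (r = 0.121 to 0.491), and all 18 arrays correlated best with one of their own number, so the numbers pair the arrays; the pairing comes from this check, not from a label that says so. No 2 arrays held identical values.

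Named with values are each channel gene called in a comparison, the brightest gene of each class, genes called only with the block whose 6 pairs had 1 sign (at most 10 per comparison), and up to 5 called channel partners per comparison; further genes were named with their values already in view. Members and lists were chosen with earlier results of these data known. Alternatives were another constant, quantile normalization, a filter on dim probe sets, fits without the trend or the group not compared, other probe sets, the block, and arrays left out.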

Additional observations from a re-analysis of the deposited data

Results flagged for a closer look

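In 8 of 126 groups of 6 arrays examined for the named genes, 1 array stood apart from the other 5 by a gap beyond the limit of Dixon's test (gap over the group's whole range), a limit at which chance flags about 1 in 20 groups. Control array 3 read 11.59 for Kcnip3, with the other controls at 12.22 to 12.60, and 9.37 for Cacna1d, with the others at 9.00 to 9.08. Control array 4 read 9.65 for Kcnj11 (others 10.01 to 10.16), and control array 1 read 7.47 for Kcnc4 (others 9.25 to 10.07). BMP array 3 read 8.89 for Kcna6, with the other BMP arrays at 9.26 to 9.34. In the CNTF group array 6 read 8.27 for Kcnh2 (others 9.00 to 9.17), array 1 read 8.32 for Kcnip1 (others 9.65 to 10.12), and array 4 read 7.22 for Cacna1g (others 9.73 to 10.15).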

How the results depend on the processing

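Of the values of single named channel genes under all alternatives, 1650 kept their side of the threshold, 202 lost a call, 65 gained one and 0 reversed. They come from 57 results, 30 called in the unblocked fit and 27 called only with the block. Only those 30 could lose a call, so many of the 1650 values are results that stayed uncalled. The block itself gave 27 of the 65 gains, as these results were picked by it. With the title number as a block the probe sets called numbered 5176 for BMP against control, 2349 for CNTF against control and 4686 for BMP against CNTF, and channel genes 17 higher and 12 lower, 4 and 8, and 28 higher; the block ended no call of a channel gene. A constant at the 40th percentile left 0 channel genes higher with CNTF. Without dim probe sets 3 were higher with BMP and 0 with CNTF, both against control. Over numbers 1 to 3 only, CNTF against control gave 194 probe sets, 0 channel genes higher and 1 lower, and BMP against CNTF 900 probe sets, 2 higher and 1 lower. Over numbers 4 to 6 only, BMP against control gave 125 probe sets and 0 channel genes higher, CNTF against control 206 and 0 lower, and BMP against CNTF 576 and 1 higher. BMP against control over numbers 1 to 3 gave 1579 probe sets and 6 channel genes higher. There Scn9a, Cacnb2, Kcnh1, Cacng3, Kcnt1 and Kcns1 were called (limma adjusted p = 0.00618 to 0.0463). Over numbers 4 to 6 these were not called (limma adjusted p = 0.0921 to 0.72). Kcnip3 was called over both, Cacnb3, Cacna2d3 and Cacna1d over neither. Kcna1 was called over numbers 4 to 6 alone (limma adjusted p = 0.0265). Both sets of numbers hold equally many arrays, fewer than the main fit. Without numbers 4 and 5, BMP against control gave 4 higher, CNTF against control 372 probe sets and 0 higher, and BMP against CNTF 1081 probe sets, 4 higher and 1 lower. With 1 array left out the probe sets called ranged over 1282 to 2097, 483 to 795 and 1379 to 1985, and channel genes over 5 to 9 higher and 2 to 4 lower, 0 to 2 and 2 to 3, and 9 to 15 and 3 to 6. With all arrays of 1 number left out these were 740 to 1789, 366 to 645 and 1111 to 1628 probe sets, and 4 to 8 and 2 to 3, 0 to 1 and 1 to 3, and 7 to 11 and 1 to 3 channel genes. The cause of the other changes was not tested. Of the 112 genes, 81 lay below the table median in every group, where signal over background is least known.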

Other observations

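A principal component analysis of the 112 channel genes alone put 26.6% of their variance on component 1, which set the BMP arrays, at 2.02 to 6.08, apart from the controls, at -2.64 to -0.66, and the CNTF arrays, at -3.41 to 0.39. Component 2 held 12.8% and set the CNTF arrays, at 0.86 to 2.54, apart from the controls, at -3.42 to -1.26. The components were computed from the same arrays as the comparisons and are a description.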
